A study of Homo sapiens with 9 samples.

Results

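The genes described here are 10 amino acid transporters of the cell surface: the heavy chain SLC3A2, its light chains SLC7A11, SLC7A5 and SLC7A6, the cationic transporter SLC7A1, the neutral exchangers SLC1A5 and SLC1A4, the sodium-coupled carriers SLC38A1 and SLC38A2, and the glycine transporter SLC6A9. They were taken by symbol from the GENCODE entries of a table of read counts. The rule used no values, but the genes were chosen with earlier results of these data known. The table held 112171 annotated features, of which 57820 came from GENCODE, and 22353 features passed the filter on low counts and were tested. Each of the 10 transporters matched 1 entry and passed that filter.

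PANC-1, an established human cell line from a pancreatic carcinoma, was kept under hypoxia for 12 h in medium with rakicidin A at 42 nM, with BE-43547A1 at 41 nM or with DMSO at 0.04%, and total RNA was sequenced in 3 libraries per group. Rakicidin A and BE-43547A1 are related cyclic lipodepsipeptides made by actinomycetes and are studied for their toxicity to cells that lack oxygen. All 9 libraries came from cells in DMEM with 10% FBS, penicillin and streptomycin, and 200 µM Ala-Gln, a stable dipeptide source of glutamine, and no library without hypoxia is described here. The doses of the compounds were not identical, the DMSO content of the compound media is not stated in the labels, and no label tells whether replicates were grown apart, so each p-value here is set against a spread among libraries that could be purely technical.

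SLC3A2 (CD98hc, 4F2hc) carries no amino acid itself; it brings a light chain of the SLC7 family to the plasma membrane, and the light chain sets what is exchanged: cystine for glutamate with SLC7A11 (xCT), large neutral amino acids with SLC7A5 (LAT1), or cationic for neutral amino acids with SLC7A6 (y+LAT2). Cystine taken up by SLC7A11 feeds glutathione synthesis, and pancreatic carcinoma cells are known for high use of glutamine and cystine. Many of these transporter genes are textbook targets of ATF4, the transcription factor of the integrated stress response, and SLC7A11 is also a textbook target of NRF2.

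Counts on features came to between 26203326 and 34870860 per library after rakicidin A, between 39807220 and 45048999 after BE-43547A1 and between 27696394 and 30596594 in DMSO. Expression is given as CPM, a count relative to its library's total, scaled by TMM, a method that sets libraries level on the bulk of genes. TMM factors were 0.89 to 0.898 after rakicidin A, 0.963 to 0.989 after BE-43547A1 and 1.14 to 1.15 in DMSO, so scaling by total counts alone moved the median log2 change of all tested features to -0.38, -0.24 and -0.14 for rakicidin A over DMSO, BE-43547A1 over DMSO and rakicidin A over BE-43547A1, against -0.02, 0 and -0.02 with TMM. DMSO library 3 stood farther from the other DMSO libraries than any other pair of a group stood apart (chi-square per degree of freedom of 17.1 and 18.9, where the lowest pair had 2.86), and without it the same counts of transporters passed the test: 10, 10 and 8. The 6 epithelial markers together had 2430 to 2540 CPM after rakicidin A, 3370 to 3640 CPM after BE-43547A1 and 2850 to 3050 CPM in DMSO, while the 4 acinar markers had at most 0.258 CPM in any library, and the islet marker INS was at 0 in all 9. Of 4 leukocyte markers 2 were tested and CD3E was at 0 in all 9, with a sum of 0.728 to 0.988 CPM after rakicidin A, 1.31 to 2 CPM after BE-43547A1 and 0.275 to 0.442 CPM in DMSO. Of 4 fibroblast or stellate markers 1 was tested, with a sum of 3.09 to 4.17 CPM after rakicidin A, 3.69 to 5.47 CPM after BE-43547A1 and 5.27 to 9.49 CPM in DMSO. The 2 endothelial markers matched had at most 0.27 CPM. The part of these marker differences in the results was not tested. In bulk RNA, fewer cells of a kind and less RNA per cell cannot be told apart.

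All 10 transporters were higher after rakicidin A than in DMSO, and all 10 were higher after BE-43547A1 than in DMSO, except that with total counts alone in place of TMM SLC7A5 turned to -0.16 on the log2 scale after rakicidin A and SLC7A6 to -0.01 after BE-43547A1. The measure was edgeR's quasi-likelihood test with a Benjamini-Hochberg adjusted p below 0.05 over all tested features. Among all tested features, 31.9% were higher and 32.7% lower after rakicidin A, 35.3% were higher and 35.1% lower after BE-43547A1, and 64.7% and 70.4% changed in either direction, so a single call was common in these data. The split of all calls depended on the scaling: after rakicidin A 7141 features were higher and 7314 lower, against 4477 and 11392 with total counts alone, and after BE-43547A1 7898 were higher and 7840 lower, against 5951 and 10450. The median log2 change of the 10 was 1.33 after rakicidin A, with a range of 0.20 to 3.51, beside a median of -0.02 for all tested features. After BE-43547A1 their median was 0.64, with a range of 0.23 to 2.12, beside 0 for all tested features. Changes of at least 2-fold were seen for 7 transporters after rakicidin A and for 4 after BE-43547A1. Of all tested features, called or not, 14.5% had a log2 change above 1.003 after rakicidin A and 16.8% one above 1.039 after BE-43547A1. In each of the 2 comparisons with DMSO, no compound library overlapped a DMSO library for any of the 10, where 33.3% and 35.7% of all tested features were higher without overlap. Both comparisons use the same DMSO libraries, so their values are given side by side and are not independent of each other. With total counts alone, 9 passed as higher after rakicidin A, 7 after BE-43547A1 and 6 between the compounds, and the exceptions are given with each gene.

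Rakicidin A and BE-43547A1 were also compared directly. Of the 10 transporters, 8 were higher after rakicidin A, none was lower, and 2, SLC7A5 and SLC3A2, did not pass the test, against 24.1% of all tested features higher, 22.5% lower and 46.6% changed in either direction (5387 higher and 5036 lower, or 3923 and 6868 with total counts alone). The median log2 difference of the 10 was 0.38, from -0.05 to 1.61, beside -0.02 for all tested features. The summed level of the 10 was 5236, 5406 and 5313 CPM after rakicidin A, 3930, 3845 and 4234 CPM after BE-43547A1, and 1560, 1483 and 1506 CPM in DMSO. SLC38A2 gave many of these reads: without it the sums were 2689, 2674 and 2714 CPM after rakicidin A, 1764, 1735 and 1824 CPM after BE-43547A1, and 1012, 974 and 1025 CPM in DMSO. The groups of 3 did not overlap in either sum. Gene by gene, 9 of the 10 were higher without overlap between the compounds, against 29.2% of all tested features.

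**Figure D1:**
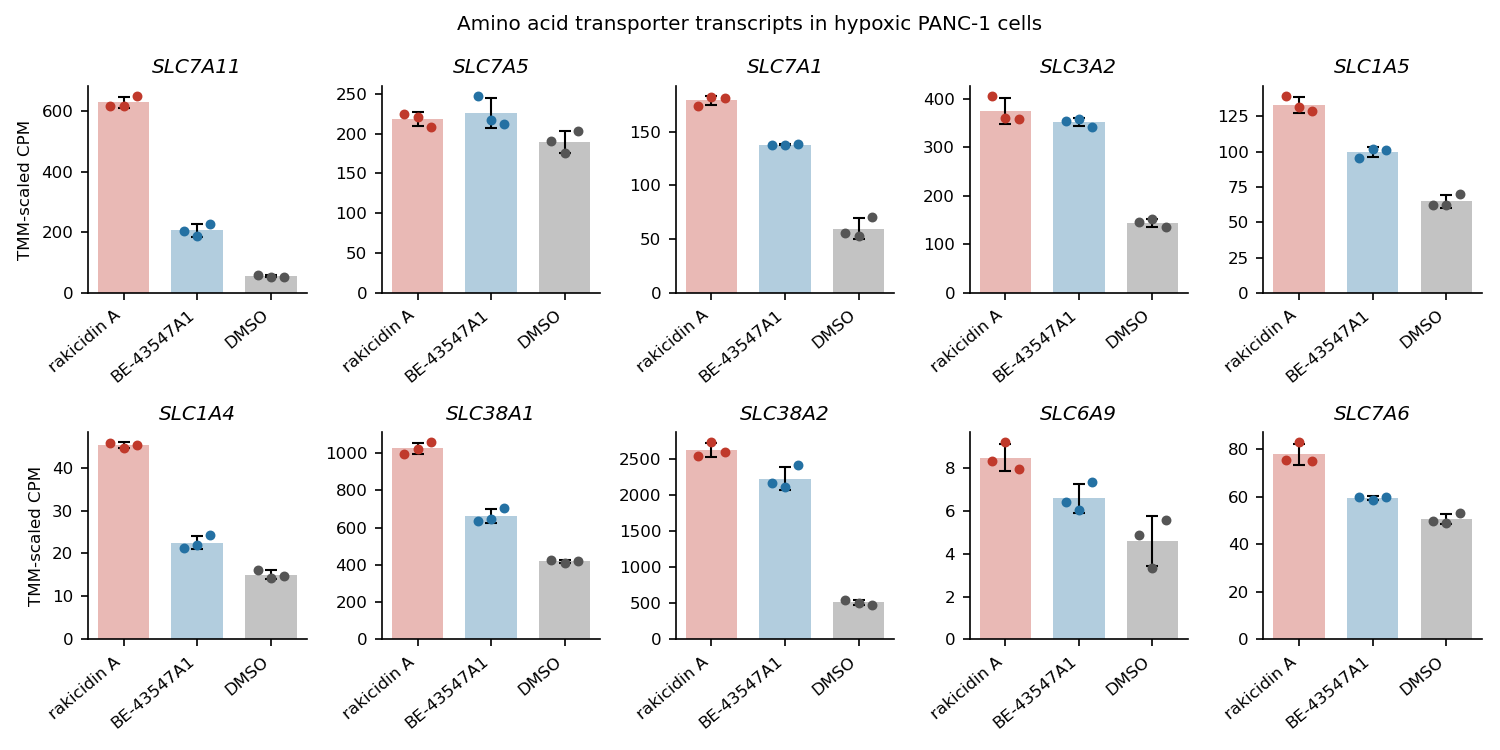
TMM-scaled CPM of each of the 10 transporters, 1 bar group per treatment, with each library as a point, the bar at the mean and the error bar as SD (n = 3); each panel has its own axis, which starts at 0. SLC7A11 sits at 619 to 652 CPM after rakicidin A, 187 to 229 CPM after BE-43547A1 and 52.4 to 59.7 CPM in DMSO, while for SLC7A5 the 3 groups lie close together.

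The start regions of these genes were read as sequence because genes that respond to ATF4 often carry a C/EBP-ATF response element (CARE), whose core was searched as TGATGNAA on both strands. RefSeq (GRCh38.p14) gave 15 windows of 300 bases, from 250 before to 50 after an annotated start, for all the members but SLC7A11, with up to 3 windows per gene. A CARE core was found in 5 of the 15 windows, 1 each for SLC7A1, SLC3A2, SLC1A5, SLC1A4 and SLC38A1, and in 3.62% of all 35116 RefSeq windows. By gene, 5 of 9 transporters had at least 1 such window, against 4.46% of 27305 genes. Many of the transporter genes are textbook targets of ATF4, and all were chosen with earlier results known. The motif shares given here are therefore a description and no test. Windows per gene were not matched either: the 9 transporters had 15, and the 27305 genes had 35116. The 5 windows follow, with that of SLC38A2, the transporter with the highest level per kilobase, which held no match. Bases outside the windows were not searched, so a window without a match does not show that the gene lacks the element. Each is printed 5′ to 3′ on the gene's own strand, with the CARE core in capitals; SLC3A2 and SLC1A4 lie on the plus strand and the others on the minus strand. The core reads on the opposite strand in SLC3A2 and SLC1A4.
SLC7A1, chr13:29595639-29595938: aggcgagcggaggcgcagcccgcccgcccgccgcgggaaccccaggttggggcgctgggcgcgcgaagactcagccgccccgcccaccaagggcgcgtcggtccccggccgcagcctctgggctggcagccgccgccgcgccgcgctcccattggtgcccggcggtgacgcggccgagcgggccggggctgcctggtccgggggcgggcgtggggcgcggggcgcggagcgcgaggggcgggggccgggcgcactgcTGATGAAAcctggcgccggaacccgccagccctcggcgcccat
SLC3A2, chr11:62881449-62881748: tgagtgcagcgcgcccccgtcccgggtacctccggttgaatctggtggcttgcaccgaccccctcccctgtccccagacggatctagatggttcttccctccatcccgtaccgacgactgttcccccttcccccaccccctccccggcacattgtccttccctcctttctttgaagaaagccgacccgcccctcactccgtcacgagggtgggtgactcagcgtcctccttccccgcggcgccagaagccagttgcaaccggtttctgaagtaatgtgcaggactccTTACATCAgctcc
SLC1A5, chr19:46784765-46785064: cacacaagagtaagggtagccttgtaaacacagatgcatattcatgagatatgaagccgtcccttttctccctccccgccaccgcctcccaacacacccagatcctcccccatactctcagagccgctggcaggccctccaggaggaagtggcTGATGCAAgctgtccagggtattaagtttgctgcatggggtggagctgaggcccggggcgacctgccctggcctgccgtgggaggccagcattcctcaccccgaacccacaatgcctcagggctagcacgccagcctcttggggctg
SLC1A4, chr2:64989149-64989448: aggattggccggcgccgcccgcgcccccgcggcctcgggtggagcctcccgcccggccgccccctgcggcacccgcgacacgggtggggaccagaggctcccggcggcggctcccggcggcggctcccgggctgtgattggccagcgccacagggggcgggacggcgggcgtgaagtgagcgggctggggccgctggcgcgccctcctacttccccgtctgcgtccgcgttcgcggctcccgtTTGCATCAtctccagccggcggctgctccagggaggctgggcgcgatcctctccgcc
SLC38A1, chr12:46266467-46266766: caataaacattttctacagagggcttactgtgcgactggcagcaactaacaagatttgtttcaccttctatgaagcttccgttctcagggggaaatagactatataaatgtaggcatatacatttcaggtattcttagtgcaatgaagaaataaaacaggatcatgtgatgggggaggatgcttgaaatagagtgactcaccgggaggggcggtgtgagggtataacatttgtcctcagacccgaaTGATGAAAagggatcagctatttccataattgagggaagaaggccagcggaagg
SLC38A2, chr12:46372724-46373023: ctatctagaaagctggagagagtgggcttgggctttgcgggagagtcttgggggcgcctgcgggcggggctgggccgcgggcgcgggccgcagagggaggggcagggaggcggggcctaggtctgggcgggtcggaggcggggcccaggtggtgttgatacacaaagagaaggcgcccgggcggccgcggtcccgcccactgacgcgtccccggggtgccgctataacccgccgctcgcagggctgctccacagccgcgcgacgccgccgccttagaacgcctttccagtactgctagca
The first base of the core lay 8 bases after the start in SLC7A1, 97 bases before it in SLC1A5 and 4 bases before it in SLC38A1. For the cores on the opposite strand, the first printed base lay 38 bases after the start in SLC3A2 and 7 bases before it in SLC1A4. In these windows no CARE core shared a base with a match of the other motifs searched, also on both strands. The windows of SLC3A2, SLC1A5, SLC1A4 and SLC38A1 belong to 1 of several annotated starts of those genes, and which start was in use in these cells was not tested. Of 3 other motifs, the antioxidant response element core TGACNNNGC was in 5 of 15 windows against 13.3% of all windows, and in 5 of 9 transporters against 16.1% of genes, the E-box CACGTG in 2 windows against 7.26%, and the endoplasmic reticulum stress element in none against 0.0769%. A match describes letters in the window and not a bound factor.

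SLC7A11, the cystine light chain, had the largest change of the 10 after rakicidin A. It had 619, 619 and 652 CPM after rakicidin A, 203, 187 and 229 CPM after BE-43547A1, and 59.7, 54.2 and 52.4 CPM in DMSO. These rest on 15170 to 19367 reads per library after rakicidin A, 7571 to 9039 after BE-43547A1 and 1715 to 1952 in DMSO. The 3 groups were fully apart. The log2 change was 3.51 for rakicidin A over DMSO (SE 0.077; 11.4-fold, edgeR adjusted p = 2.34e-17), and 1.08% of all tested features had a larger one. For BE-43547A1 over DMSO it was 1.90 (SE 0.073; 3.73-fold, edgeR adjusted p = 5.47e-14), with 7.52% of features above it. The direct difference between the compounds, 1.61 on the log2 scale with a 95% interval of 1.46 to 1.76, was a 3.05-fold higher level after rakicidin A (edgeR adjusted p = 1.98e-11), and 68 of the 22353 tested features had a larger one. Its antisense gene SLC7A11-AS1, which shares 8.97% of its exon length, had between 0.233 and 0.929% as many reads in any library.

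SLC3A2, the heavy chain that SLC7A11 needs at the membrane, had 406, 361 and 359 CPM after rakicidin A, 355, 358 and 342 CPM after BE-43547A1, and 146, 152 and 135 CPM in DMSO. It rose 2.6-fold after rakicidin A (log2 1.38, SE 0.062, edgeR adjusted p = 5.91e-13) and 2.44-fold after BE-43547A1 (log2 1.29, SE 0.062, edgeR adjusted p = 1.7e-12). Between the compounds its libraries did not overlap, but the difference of 0.09 did not pass the test (95% interval -0.03 to 0.22, edgeR adjusted p = 0.22), and with total counts alone it was -0.03.

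SLC7A5, the large neutral amino acid light chain through which cells take up leucine, moved least against DMSO of the 10 after rakicidin A. It had 225, 221 and 208 CPM after rakicidin A, 247, 218 and 212 CPM after BE-43547A1, and 190.5, 175 and 203 CPM in DMSO, so the compound libraries sat just above the DMSO libraries. The rise was 1.15-fold after rakicidin A (log2 0.20, SE 0.067, edgeR adjusted p = 0.0138), but with total counts alone the log2 change was -0.16 (edgeR adjusted p = 0.0543), and without DMSO library 2 it was 0.15 (edgeR adjusted p = 0.0748). The rise was 1.19-fold after BE-43547A1 (log2 0.25, SE 0.067, edgeR adjusted p = 0.0026), and 0.02 on the log2 scale with total counts alone (edgeR adjusted p = 0.853). The compounds overlapped, with a difference of -0.05 (95% interval -0.19 to 0.09, edgeR adjusted p = 0.562). Among all tested features, 38.6% had a larger change after rakicidin A than SLC7A5. Its pseudogene SLC7A5P1 had between 0.369 and 1.15% as many reads.

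SLC7A6, the light chain that trades cationic for neutral amino acids, had 75.2, 82.7 and 74.96 CPM after rakicidin A, 59.7, 58.5 and 59.8 CPM after BE-43547A1, and 49.9, 48.8 and 53.0 CPM in DMSO. It rose 1.54-fold after rakicidin A (log2 0.62, SE 0.059, edgeR adjusted p = 3.01e-08). After BE-43547A1 it rose 1.17-fold (log2 0.23, SE 0.059, edgeR adjusted p = 0.00185), a change that was -0.01 with total counts alone (edgeR adjusted p = 0.923). It was 1.31-fold higher after rakicidin A than after BE-43547A1 (edgeR adjusted p = 2.52e-05). SLC7A6OS on the opposite strand shares 3371 bases of exon with it in GENCODE v29, 44.4% of its exon length, and the strand setting of the counting is not given in the sources used here, so reads of the pair cannot be told apart.

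Seen per kilobase of exon, the light chains changed places. Levels per kilobase were computed from the union of a gene's exons in GENCODE v29 (GRCh38), and the share of each of SLC7A11, SLC7A5, SLC7A6 and SLC7A7 in their sum was taken in every library, which does not depend on library scaling. SLC7A11 made up 52.8, 52.7 and 55.6% of the sum after rakicidin A, 26.0, 26.6 and 31.1% after BE-43547A1, and 11.7, 11.4 and 9.85% in DMSO. The mean share of SLC7A5 was 37.7% ± 1.46 after rakicidin A, 61.8% ± 2.99 after BE-43547A1 and 76.2% ± 1.12 in DMSO (SD, n = 3 each). SLC7A6 made up 8.41% after rakicidin A, 10.2% after BE-43547A1 and 12.7% in DMSO on average, and SLC7A7, the y+LAT1 light chain, at most 0.148% in any group. SLC7A11 was the light chain with the highest level per kilobase in all 3 rakicidin A libraries, and SLC7A5 in the other 6. The remaining light chains SLC7A8 and SLC7A10 had 16 and 17 reads over all 9 libraries and were not tested. Per unit of SLC3A2, SLC7A11 stood at 0.905 ± 0.0789 after rakicidin A, 0.316 ± 0.0401 after BE-43547A1 and 0.207 ± 0.014 in DMSO, and SLC7A5 stood at 0.635 ± 0.0322 after rakicidin A, 0.7 ± 0.0522 after BE-43547A1 and 1.44 ± 0.19 in DMSO (SD, n = 3 each). The size of these ratios depends on the length taken for SLC3A2. By longest transcript, SLC3A2 had 169 and SLC7A11 65.3 CPM per kilobase after rakicidin A. By the same length SLC3A2 had 64.9 and SLC7A5 41.8 CPM per kilobase in DMSO, so SLC7A5 then lay below SLC3A2. These are ratios of RNA and not of protein complexes.

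**Figure D2:**
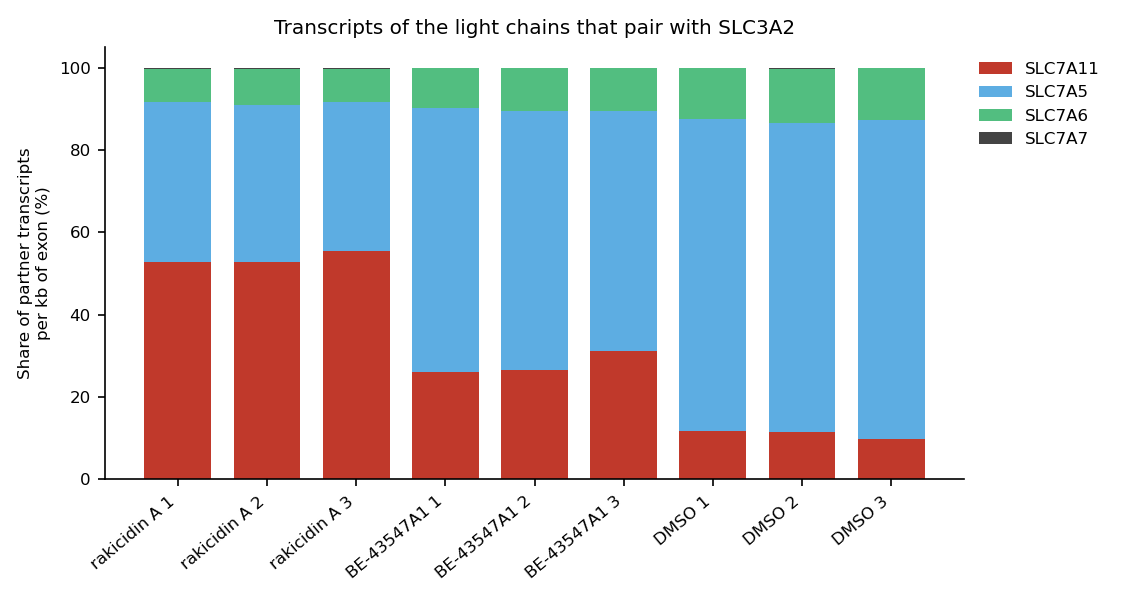
Share (%) of SLC7A11, SLC7A5, SLC7A6 and SLC7A7 in the sum of their CPM per kilobase of exon, 1 stacked bar for each of the 9 libraries, grouped by treatment. The SLC7A11 part covers 52.7 to 55.6% of the bar after rakicidin A, 26.0 to 31.1% after BE-43547A1 and 9.85 to 11.7% in DMSO.

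SLC7A1 (CAT1), the main carrier of arginine and lysine into most cells, had 174, 182 and 181 CPM after rakicidin A, 137.5, 137.5 and 138.9 CPM after BE-43547A1, and 56.2, 52.6 and 70.8 CPM in DMSO. DMSO library 3 was the highest DMSO library and still lay well below all 6 compound libraries. The level was 2.99-fold higher after rakicidin A (log2 1.58, SE 0.081, edgeR adjusted p = 3.67e-12) and 2.3-fold higher after BE-43547A1 (log2 1.20, SE 0.08, edgeR adjusted p = 1.71e-10) than in DMSO. Rakicidin A exceeded BE-43547A1 by 1.3-fold (log2 0.38, SE 0.078, edgeR adjusted p = 0.000623).

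Both neutral exchangers of the SLC1 family rose after each compound. SLC1A5 (ASCT2), which exchanges glutamine and other neutral amino acids, had 140, 132 and 129 CPM after rakicidin A, 95.7, 102 and 101 CPM after BE-43547A1, and 62.3, 62.0 and 70.0 CPM in DMSO. It rose 2.06-fold after rakicidin A (log2 1.04, SE 0.061, edgeR adjusted p = 2.88e-11) and 1.54-fold after BE-43547A1 (log2 0.62, SE 0.061, edgeR adjusted p = 3.81e-08), and was 1.34-fold higher after rakicidin A than after BE-43547A1 (edgeR adjusted p = 1.51e-05). On the opposite strand AC008622.2 shares 23.4% of its exon length. SLC1A4 (ASCT1), which exchanges serine, alanine, cysteine and threonine, had 45.8, 44.5 and 45.3 CPM after rakicidin A, 21.2, 22.0 and 24.2 CPM after BE-43547A1, and 16.3, 14.3 and 14.7 CPM in DMSO. The rakicidin A libraries stood far above both other groups. It rose 3-fold after rakicidin A (log2 1.58, SE 0.073, edgeR adjusted p = 8.58e-13) and 1.49-fold after BE-43547A1 (log2 0.575, SE 0.074, edgeR adjusted p = 1.39e-06). The direct difference, 2.01-fold (log2 1.01, SE 0.07, edgeR adjusted p = 3.45e-09), was the second largest of the 10 after that of SLC7A11, and 2.38% of all tested features had a larger one.

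The sodium-coupled carriers SLC38A1 (SNAT1) and SLC38A2 (SNAT2) bring glutamine, alanine and other small neutral amino acids into the cell, and SLC38A2 is the classical gene of the adaptive response to amino acid shortage. SLC38A2 had 2547, 2731 and 2599 CPM after rakicidin A, 2165, 2110 and 2411 CPM after BE-43547A1, and 548, 508 and 481 CPM in DMSO. It rose 5.12-fold after rakicidin A (log2 2.36, SE 0.065, edgeR adjusted p = 4.58e-16) and 4.35-fold after BE-43547A1 (log2 2.12, SE 0.064, edgeR adjusted p = 2.06e-15), with 3.44% of all tested features above it after rakicidin A and 6.2% after BE-43547A1. The compounds differed by 1.18-fold (log2 0.24, SE 0.061, edgeR adjusted p = 0.00393), a difference that was 0.12 with total counts alone (edgeR adjusted p = 0.105). After BE-43547A1 its log2 change was the highest of the 10, and after rakicidin A it came after SLC7A11.

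SLC38A1 had 996, 1023 and 1058 CPM after rakicidin A, 638, 647 and 708 CPM after BE-43547A1, and 427, 412 and 421 CPM in DMSO. The 3 groups formed separate steps. It rose 2.44-fold after rakicidin A (log2 1.29, SE 0.055, edgeR adjusted p = 2.74e-13) and 1.58-fold after BE-43547A1 (log2 0.66, SE 0.055, edgeR adjusted p = 3.65e-09), and was 1.54-fold higher after rakicidin A than after BE-43547A1 (edgeR adjusted p = 4.38e-08).

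SLC6A9 (GLYT1), the glycine transporter, had the fewest reads of the 10, with 185 to 288 reads per library after rakicidin A, 244 to 286 after BE-43547A1 and 105 to 196 in DMSO. Its levels were 8.33, 9.21 and 7.95 CPM after rakicidin A, 6.43, 6.03 and 7.35 CPM after BE-43547A1, and 4.89, 3.32 and 5.57 CPM in DMSO. The DMSO libraries were spread widely for this gene. It rose 1.85-fold after rakicidin A (log2 0.89, SE 0.147, edgeR adjusted p = 3.35e-05) and 1.43-fold after BE-43547A1 (log2 0.52, SE 0.145, edgeR adjusted p = 0.0039), and the change after BE-43547A1 was 0.28 with total counts alone (edgeR adjusted p = 0.097). CCDC24 on the opposite strand, which shares 7.83% of its exon length, changed the other way, by -0.77 after rakicidin A (edgeR adjusted p = 4.4e-06) and -0.51 after BE-43547A1 (edgeR adjusted p = 0.00018). CCDC24 had 55.6 to 64.9% as many reads as SLC6A9 after rakicidin A, 83.3 to 99% after BE-43547A1 and 153 to 265% in DMSO. With the strand setting not given, reads on the bases shared by this pair cannot be told apart either. For SLC6A9 the difference between the compounds was 1.29-fold (log2 0.37, SE 0.138, edgeR adjusted p = 0.0356). That call was lost with total counts alone (log2 0.25, edgeR adjusted p = 0.155) and without any 1 of 4 libraries: rakicidin A 1 (edgeR adjusted p = 0.0652), rakicidin A 2 (0.138), BE-43547A1 1 (0.0967) or BE-43547A1 2 (0.129).

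**Figure D3:**
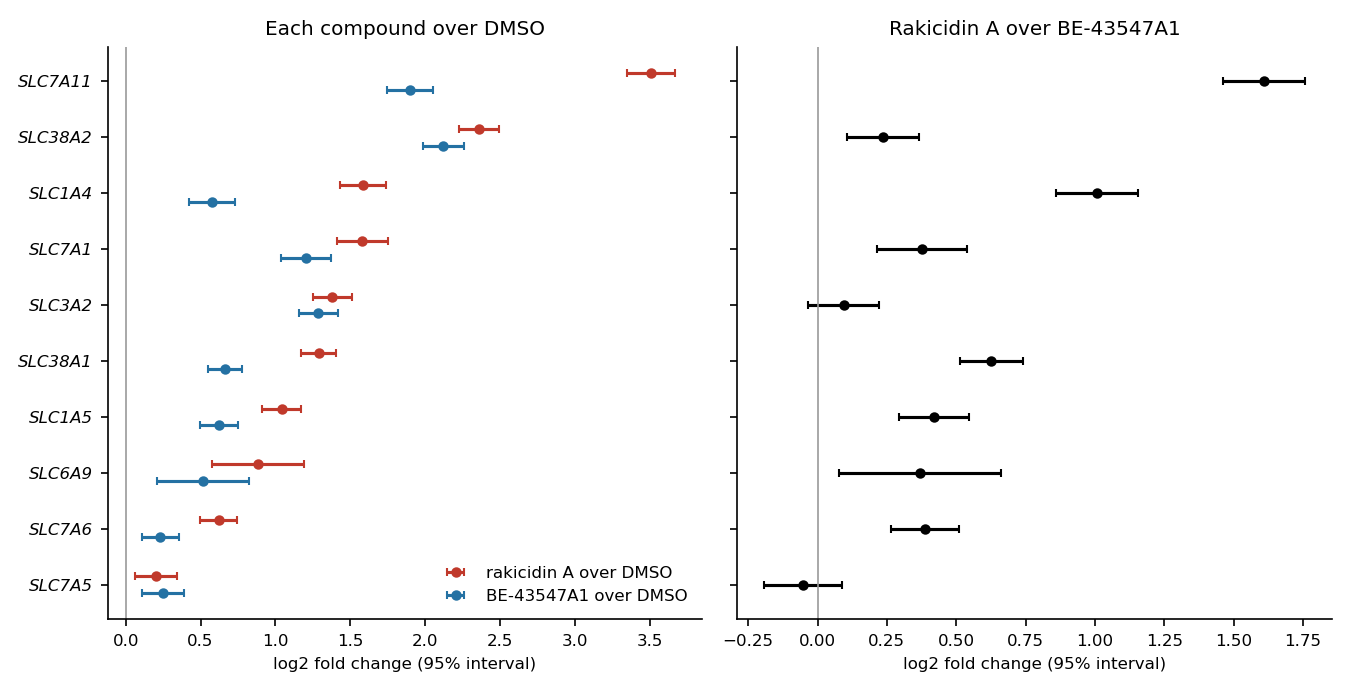
Log2 fold change with its 95% interval for each transporter in 3 comparisons: rakicidin A over DMSO, BE-43547A1 over DMSO and rakicidin A over BE-43547A1; the vertical line marks 0. SLC7A11 lies at 3.51, 1.90 and 1.61, and the intervals of SLC7A5 and SLC3A2 include 0 in the comparison of the compounds.

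Levels of different transporters were compared per kilobase of exon only. SLC38A2 was highest in every group, at 398 CPM per kilobase ± 14.4 after rakicidin A, 338 ± 24.2 after BE-43547A1 and 77.6 ± 5.12 in DMSO (SD, n = 3 each). SLC38A1, SLC3A2, SLC7A11, SLC7A5 and SLC1A5 followed after rakicidin A, with 102, 72.5, 65.3, 45.9 and 40 CPM per kilobase. SLC7A11 was in place 4 of the 10 after rakicidin A, 6 after BE-43547A1 (21.4 CPM per kilobase) and 8 in DMSO (5.75 CPM per kilobase). SLC7A5 was in place 5 after rakicidin A, 4 after BE-43547A1 and 3 in DMSO (40 CPM per kilobase). Some neighbours in these orders lay within 1 SD of each other: SLC3A2 and SLC38A1 after BE-43547A1, at 67.9 ± 1.57 and 66.4 ± 3.79, and SLC38A1 and SLC7A5 in DMSO, at 41.9 ± 0.74 and 40 ± 2.89, and SLC7A1 and SLC7A6 in DMSO, at 7.78 ± 1.25 and 6.66 ± 0.286. SLC1A4 and SLC6A9 came last in every group, with 6.51 and 1.65 CPM per kilobase after rakicidin A, 3.24 and 1.28 after BE-43547A1, and 2.17 and 0.89 in DMSO. The place of SLC3A2 depends on the length used, since its exons together span 5178 bases and its longest transcript 2222: with the second length it was in place 2 in all 3 groups.

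For each transporter, the genes with the most similar profile were found among 10246 GENCODE genes with at least 5 CPM, as the root mean square difference of log2 CPM over the 9 libraries after each gene's mean was taken away. By this distance, which tends to grow with the size of a gene's change, SLC7A11 had no close match. NCOA7, a nuclear receptor coactivator, was nearest at 0.221 and CRELD2, an endoplasmic reticulum protein, next at 0.246. Their Pearson correlations with SLC7A11 were still 0.9892 and 0.9857. For the nearest genes of the 10 the correlation ran from 0.9313 (SLC7A5 with BAI2) to 0.999 (SLC38A2 with CPEB4). SLC38A1 had the closest, LZTFL1 at 0.035 and CLCN3 at 0.041. SLC38A2 was nearest to CPEB4 (0.047) and SGMS2 (0.074), SLC3A2 to GMEB2 (0.074) and BUD31 (0.077), SLC7A1 to GPRC5A (0.062) and RNF24 (0.064), and SLC1A4 to GRPEL2 (0.047) and MTDH (0.051). SLC1A5 was nearest to DPP9 (0.052) and RBM22 (0.055), SLC7A6 to KDM5B (0.044) and FOXK2 (0.047), SLC7A5 to BAI2 and GALNS (0.053 each), and SLC6A9 to SF3A2 (0.125) and ZSCAN22 (0.152). Among the transporters themselves, SLC38A1 and SLC1A5 were 0.132 apart, while the member nearest to SLC7A11, SLC38A2, was 0.604 away. These distances rest on 9 libraries in 3 groups, and no test was run on them.

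The other plasma membrane transporters had calls in both directions against DMSO. Their median log2 change stood below that of the 10 with rakicidin A (0.55 against 1.33). With BE-43547A1 it stood above it (0.76 against 0.64). Of all tested features, 31.9% were called higher for rakicidin A and 35.3% for BE-43547A1, and 32.7% and 35.1% were called lower. Between the compounds 24.1% of all tested features were higher and 22.5% lower after rakicidin A. Several of the other transporters tested had few reads: SLC7A9, SLC7A7 and SLC6A15 averaged 0.3, 0.588 and 0.627 CPM over the 9 libraries. Of 30 other plasma membrane transporters, 9 had enough counts to be tested, and after rakicidin A 5 were higher and 3 lower (median log2 change 0.55), while after BE-43547A1 5 were higher and 2 lower (median 0.76). The split with total counts alone was 3 higher and 4 lower after rakicidin A and 4 higher and 4 lower after BE-43547A1. SLC7A2, a cationic transporter related to SLC7A1, was higher than in DMSO by 2.19 on the log2 scale after rakicidin A and by 1.18 after BE-43547A1, but averaged only 1.96 CPM after rakicidin A, 0.965 CPM after BE-43547A1 and 0.422 CPM in DMSO. SLC3A1, the heavy chain of the renal cystine transporter, was higher by 0.57 after rakicidin A and 0.90 after BE-43547A1. SLC43A2 (LAT4) was higher by 0.55 after rakicidin A and 0.76 after BE-43547A1. With total counts alone neither passed after rakicidin A (SLC3A1 0.22, edgeR adjusted p = 0.222; SLC43A2 0.19, edgeR adjusted p = 0.186). SLC6A6, the taurine transporter and the one of the 9 with the most reads, fell to 77.7 ± 4.0 CPM after rakicidin A and 108 ± 2.9 CPM after BE-43547A1, against 140.0 ± 11.5 CPM in DMSO (SD, n = 3 each). Its log2 change was -0.85 after rakicidin A (edgeR adjusted p = 1.14e-09) and -0.38 after BE-43547A1 (edgeR adjusted p = 3.47e-05). SLC38A4, a liver-type neutral carrier of the same family as SLC38A2, fell by 0.94 on the log2 scale after rakicidin A and by 0.83 after BE-43547A1. SLC6A17 was at -0.40 after rakicidin A (edgeR adjusted p = 0.0308; -0.33 without DMSO library 3, edgeR adjusted p = 0.0883) and at -0.24 after BE-43547A1 (edgeR adjusted p = 0.14; -0.48 with total counts alone, edgeR adjusted p = 0.00761), and the compounds differed by -0.15 (edgeR adjusted p = 0.443). The other called genes were SLC7A7 and SLC7A9, named after their values were seen. SLC7A7 was higher by 1.75 after rakicidin A (edgeR adjusted p = 0.00022) and by 1.04 after BE-43547A1 (edgeR adjusted p = 0.0147), and the call after BE-43547A1 was lost with total counts alone (0.80, edgeR adjusted p = 0.0512) and without DMSO library 3 (0.70, edgeR adjusted p = 0.0936). SLC7A9, a light chain of SLC3A1, had 15, 9 and 4 reads after rakicidin A, 20, 20 and 24 after BE-43547A1 and 1, 2 and 1 in DMSO. In the direct comparison 1 of the 9 was higher after rakicidin A, SLC7A2 (log2 1.01, edgeR adjusted p = 0.000335), and 1 lower, SLC6A6 (log2 -0.47, edgeR adjusted p = 7.67e-06), or 1 higher and 3 lower with total counts alone.

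Of 13 genes listed as transporters of lysosomes and other internal membranes, 11 were tested, and 7 were higher and 3 lower against DMSO after each compound (median log2 change 0.57 after rakicidin A and 0.49 after BE-43547A1). With total counts alone the split after rakicidin A was 5 higher and 4 lower. PQLC2, which exports cationic amino acids from lysosomes, had 22.0 CPM after rakicidin A, 22.8 CPM after BE-43547A1 and 10.0 CPM in DMSO, a log2 change of 1.13 after rakicidin A (edgeR adjusted p = 9.63e-10) and 1.19 after BE-43547A1 (edgeR adjusted p = 3.47e-10). SLC36A1 (PAT1), a proton-coupled exporter, was higher by 1.06 after rakicidin A and 0.76 after BE-43547A1, and SLC36A4, of the same family, by 0.62 after rakicidin A and 0.56 after BE-43547A1. SLC38A7, a lysosomal glutamine carrier, was higher by 0.57 after rakicidin A and 0.82 after BE-43547A1, and its change after rakicidin A did not pass with total counts alone (0.21, edgeR adjusted p = 0.0656). SLC15A4, a histidine and peptide carrier, was higher by 0.63 after rakicidin A and 0.16 after BE-43547A1, and the change after BE-43547A1 was -0.075 with total counts alone (edgeR adjusted p = 0.267) and 0.11 without DMSO library 3 (edgeR adjusted p = 0.0996). SLC38A10, SLC38A6 and SLC43A3 passed as lower after both compounds, with log2 changes of -0.34 to -0.57. Whether each gene of this list carries amino acids across internal membranes, SLC43A3 included, was not tested. Between the compounds 2 were higher and 2 lower after rakicidin A, or 1 and 2 with total counts alone, and 7 did not pass.

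Genes of the integrated stress response were counted in the same fit. Their part in the changes of the transporters was not tested. Of 14 kinases and factors of the integrated stress response, in which kinases that phosphorylate eIF2α raise ATF4, 10 were higher and 3 lower against DMSO after each compound (median log2 change 2.08 after rakicidin A and 1.89 after BE-43547A1). ATF3 was at 944 CPM after rakicidin A, 1009 CPM after BE-43547A1 and 11.7 CPM in DMSO, a log2 change of 6.33 after rakicidin A and 6.43 after BE-43547A1. DDIT3 (CHOP) was at 399 CPM after rakicidin A, 364 CPM after BE-43547A1 and 17.0 CPM in DMSO, a log2 change of 4.55 after rakicidin A and 4.42 after BE-43547A1. EIF2AK3 (PERK), the eIF2α kinase of the endoplasmic reticulum, was at 463 CPM after rakicidin A, 284 CPM after BE-43547A1 and 34.5 CPM in DMSO, and PPP1R15A (GADD34), which reverses the phosphorylation, was higher by 3.68 on the log2 scale after rakicidin A and 3.61 after BE-43547A1. The kinases EIF2AK2 (PKR) and EIF2AK4 (GCN2, the sensor of uncharged tRNA) and the factor ATF5 passed as lower after both, with log2 changes of -0.41 to -0.73. Between the compounds, 4 of the 14 were higher and 2 lower after rakicidin A, or 4 and 4 with total counts alone, while 8 did not pass. The 6, named after their values were seen, were TRIB3 (1.46), EIF2AK3 (0.71), CEBPG (0.595) and ATF4 itself (0.37) as higher, and NUPR1 (-0.39) and EIF2AK2 (-0.17) as lower, on the log2 scale. ATF4 mRNA had 829 ± 19.5 CPM after rakicidin A, 641 ± 10.6 CPM after BE-43547A1 and 165 ± 1.96 CPM in DMSO (SD, n = 3 each).

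Cystine that enters through SLC7A11 is used for glutathione, and 16 of 17 genes of cystine use, glutathione and the NRF2 pathway were tested. After rakicidin A 7 were higher and 6 lower (median log2 change 0.05), and after BE-43547A1 8 were higher and 3 lower (median 0.20). Scaled by total counts alone, the splits were 7 higher and 9 lower after rakicidin A and 5 higher and 7 lower after BE-43547A1. Between the compounds 7 were higher and 4 lower after rakicidin A, or 5 and 7 with total counts alone. CHAC1, which breaks down glutathione, was at 93.8 CPM after rakicidin A, 52.2 CPM after BE-43547A1 and 6.79 CPM in DMSO, a log2 change of 3.78 after rakicidin A and 2.94 after BE-43547A1. TXNRD1, thioredoxin reductase and a textbook NRF2 target, was at 2461 CPM after rakicidin A, 1493 CPM after BE-43547A1 and 887 CPM in DMSO, a log2 change of 1.47 after rakicidin A and 0.75 after BE-43547A1. BACH1, a repressor of NRF2 targets, was higher by 2.06 after rakicidin A and 2.13 after BE-43547A1, and NFE2L2, which encodes NRF2, by 0.90 after rakicidin A and 0.70 after BE-43547A1. GCLM, the modifier subunit of the enzyme that commits glutathione synthesis, was named after its values were seen: it had 138 CPM after rakicidin A, 78.5 CPM after BE-43547A1 and 64.0 CPM in DMSO, with a log2 change after BE-43547A1 of 0.295 (0.06 with total counts alone, edgeR adjusted p = 0.375) and a log2 difference of 0.81 between the compounds (edgeR adjusted p = 4.82e-09). GGCT, an enzyme of glutathione breakdown, fell by 0.52 after rakicidin A and by 0.475 after BE-43547A1, and CHAC2 fell by 0.54 after rakicidin A and by 0.73 after BE-43547A1. GPX4, the peroxidase that protects membrane lipids, fell by 0.33 after rakicidin A and was at 0.06 after BE-43547A1 (edgeR adjusted p = 0.379; -0.18 with total counts alone, edgeR adjusted p = 0.0048), and the compounds differed by -0.39 (edgeR adjusted p = 1.49e-05). TXN, thioredoxin, fell by 0.36 after rakicidin A and was at 0.10 after BE-43547A1 (edgeR adjusted p = 0.201; -0.13 with total counts alone, edgeR adjusted p = 0.0939), a difference of -0.47 (edgeR adjusted p = 3.26e-05). KEAP1, which holds NRF2 down, was at -0.06 after rakicidin A (edgeR adjusted p = 0.399; -0.42 with total counts alone, edgeR adjusted p = 1.17e-05) and fell by 0.54 after BE-43547A1, a difference of 0.48 between the compounds (edgeR adjusted p = 6.4e-06).

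Of 20 genes listed under amino acid sensing upstream of mTORC1, not all of them sensors, 18 were tested. Of these, 10 were higher and 3 lower after rakicidin A (median log2 change 0.31), and 10 higher and 5 lower after BE-43547A1 (median 0.24). Under total counts alone they were 7 higher and 6 lower after rakicidin A and 6 higher and 8 lower after BE-43547A1. Between the compounds 6 were higher and 3 lower after rakicidin A, or 3 and 4 with total counts alone. SESN2, which binds leucine, was at 312 CPM after rakicidin A, 275 CPM after BE-43547A1 and 19.6 CPM in DMSO (log2 change 3.99 after rakicidin A, edgeR adjusted p = 1.4e-19, and 3.81 after BE-43547A1, edgeR adjusted p = 2.2e-19). RRAGC, a Rag GTPase, was at 97.8 CPM after rakicidin A, 149 CPM after BE-43547A1 and 18.04 CPM in DMSO, a log2 change of 2.44 after rakicidin A and 3.04 after BE-43547A1. It was lower after rakicidin A than after BE-43547A1 (-0.605, edgeR adjusted p = 8.45e-08), the opposite direction to the 8 transporters that differed. FLCN, folliculin, a partner of the Rag GTPases, was higher by 2.47 after rakicidin A and 2.36 after BE-43547A1. DEPDC5, a subunit of GATOR1, which restrains mTORC1, fell by 0.98 after rakicidin A and by 0.97 after BE-43547A1. RRAGD fell by 0.455 after rakicidin A and by 0.38 after BE-43547A1, SESN1 fell by 0.335 after rakicidin A and by 0.35 after BE-43547A1, and RRAGA was at -0.21 after rakicidin A (edgeR adjusted p = 0.0654; -0.57 with total counts alone, edgeR adjusted p = 6.47e-05) and fell by 0.50 after BE-43547A1. All 5 lists were drawn up by pathway and not by how their genes moved, but with earlier results of these data known.

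**Figure D4:**
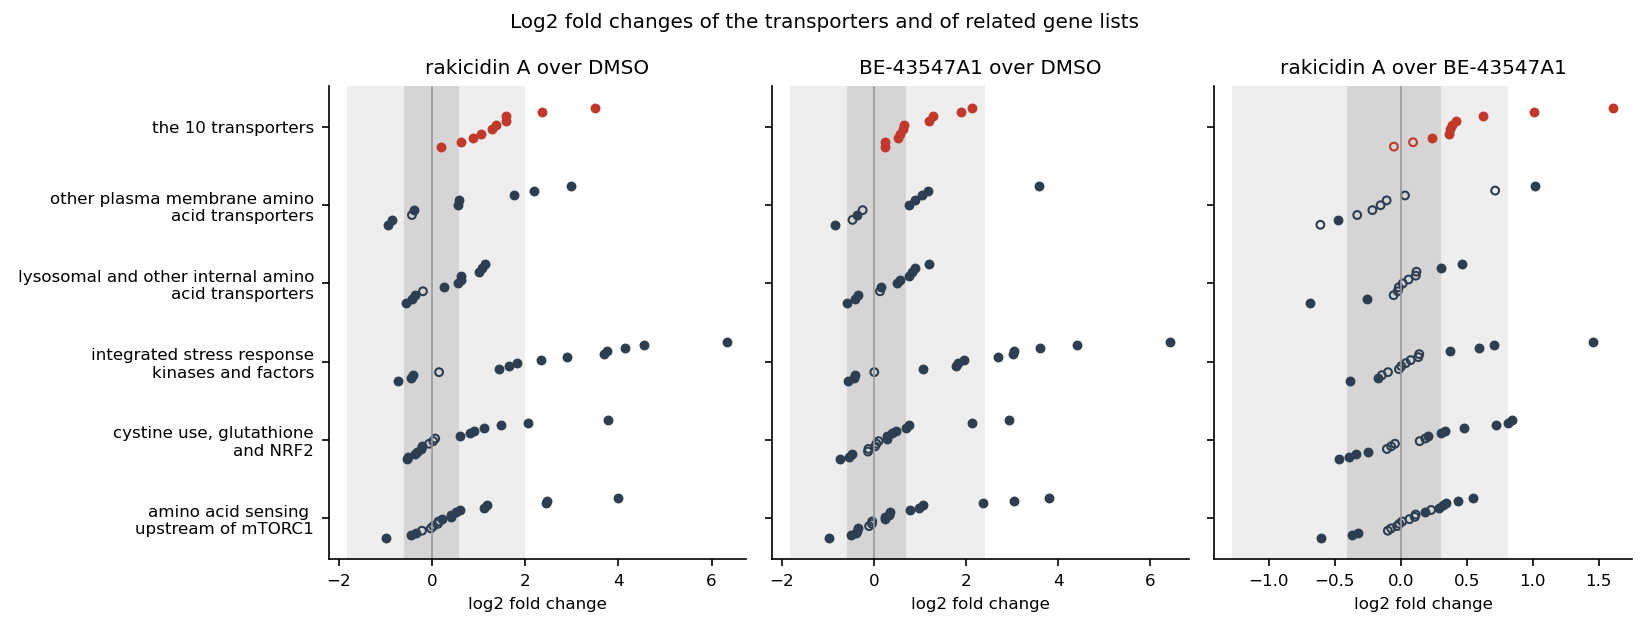
Log2 fold change of each tested gene among the 10 transporters and 5 lists, with a panel each for rakicidin A over DMSO, BE-43547A1 over DMSO and rakicidin A over BE-43547A1; filled points passed the test (adjusted p below 0.05) and open points did not, and the grey bands span the 25th to 75th (dark) and 5th to 95th (light) percentiles of all tested features. All transporter points lie above 0 in the panels against DMSO (with total counts alone SLC7A5 lies at -0.16 after rakicidin A and SLC7A6 at -0.01 after BE-43547A1), with medians of 1.33 after rakicidin A and 0.64 after BE-43547A1, while each of the 5 lists has called genes on both sides of 0.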

How the data were processed

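Total RNA of PANC-1 cells in 3 groups of 3 libraries was sequenced with paired-end reads of 76 bases on an Illumina NextSeq, per the labels' protocols. The submitters' processing notes name TopHat2, HTSeq, GRCh37 and hg19. Any further version, setting or strand option is not given in the sources used here. In the authors' deposited table stand whole-number counts per feature, with no normalization. Its 5 summary entries were set aside: reads on no feature made up 16.4 to 18% after rakicidin A, 18.1 to 19.2% after BE-43547A1 and 20.3 to 20.8% in DMSO, reads placed at more than 1 site 19.1 to 22.4%, and ambiguous reads 2.65 to 2.94%. No per-sample column was left unused.

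The counts were fitted with edgeR 4.0.16 (R 4.3.3): filterByExpr, TMM, and the quasi-likelihood test with 1 mean per group over 9 libraries (6 residual degrees of freedom). P-values were adjusted by Benjamini-Hochberg over all tested features and called below 0.05. Standard errors are the log2 fold change divided by the square root of F, and intervals are at 95%. Log CPM used a prior count of 2. The steps were tested on simulated data in which a small set of features was raised in the rakicidin A group alone. Such data hold no broad shift between groups, so they cannot tell how well TMM scaled these libraries. Gene lengths and exon overlaps came from GENCODE v29 on GRCh38, matched by symbol, and promoters from RefSeq on GRCh38.p14, neither of which is the build of the counts. Overlaps under 1% of a transporter's exon length are not reported here. Figures were drawn with matplotlib 3.10.9.

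The transporters and the 5 lists were chosen with earlier results of these data known. All 10 transporters are named. Of each list, up to 3 genes in each direction against DMSO are named, by smallest p among called genes with at least 1 CPM on average, and others only where the text says so. The fit was repeated with total counts alone, with RLE size factors, and without the filter. Further repeats used the 6 libraries of a comparison, DESeq2 1.42.0, limma-voom (limma 3.58.1), a replicate block, a fold threshold, and each library left out.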

Additional observations from a re-analysis of the deposited data

Results flagged for a closer look

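These are signals in features outside the 10 transporters that overlap one of them or copy its sequence, each higher than in DMSO by edgeR's quasi-likelihood test with Benjamini-Hochberg adjustment over all tested features. SLC7A11-AS1, which shares 865 bases with SLC7A11 on the opposite strand, had 53, 72 and 43 reads after rakicidin A, 84, 41 and 53 after BE-43547A1 and 8, 4 and 11 in DMSO. Its log2 change was 3.12 after rakicidin A (edgeR adjusted p = 7.86e-08) and 2.62 after BE-43547A1 (edgeR adjusted p = 8.29e-07), and its reads came to between 0.233 and 0.929% of those of SLC7A11 in each library. SLC7A5P1, a pseudogene copy of SLC7A5, had 43, 52 and 36 reads after rakicidin A, 96, 101 and 75 after BE-43547A1 and 23, 37 and 27 in DMSO, a log2 change of 0.86 after rakicidin A (edgeR adjusted p = 0.00212) and 1.33 after BE-43547A1 (edgeR adjusted p = 9.37e-06). SLC7A6OS, whose counts were 41.2 to 51.4% of those of SLC7A6, changed by 0.66 after rakicidin A (edgeR adjusted p = 1.26e-07) and 0.30 after BE-43547A1 (edgeR adjusted p = 0.000775). The part of misplaced reads in these values was not tested.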

How the results depend on the processing

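Over 16 alternatives and 3 comparisons, 469 log2 changes of the 10 transporters stayed on their side of the threshold, 9 lost the call in the same direction and 2 lost it and turned. Among those that did not pass, the differences between the compounds also changed sign: SLC3A2 was at -0.03 with total counts alone and SLC7A5 at 0.01 without BE-43547A1 library 1. With total counts alone SLC7A5 turned to -0.16 after rakicidin A and SLC7A6 to -0.007 after BE-43547A1, and 9, 7 and 6 transporters passed for rakicidin A over DMSO, BE-43547A1 over DMSO and rakicidin A over BE-43547A1. With a log2 change of at least 1 required, 4 passed for BE-43547A1 over DMSO and 2 between the compounds. Of all tested features, called or not, 16.8% lay above 1.039 and 2.38% above 1.008 in these comparisons. With each library left out in turn, the transporters passing were 9 to 10 for rakicidin A over DMSO, 10 for BE-43547A1 over DMSO and 7 to 8 between the compounds. In the same order, list genes passing were 7 to 8, 6 to 7 and 2 to 4 (other plasma membrane transporters), 9 to 10, 8 to 10 and 2 to 4 (internal membranes), 13 to 14, 13 and 5 to 9 (stress response), 12 to 14, 11 to 12 and 10 to 12 (cystine and glutathione), and 12 to 14, 14 to 15 and 8 to 9 (sensing). Between the compounds, other plasma membrane transporters passing were 2, or 4 with total counts alone, with the 6 libraries of the comparison, or without rakicidin A library 1 or BE-43547A1 library 3. Those of internal membranes were 4, or 2 without rakicidin A library 2 or 3 or BE-43547A1 library 2. The cause was not tested. With all 9 libraries, 64.7% of all tested features passed for rakicidin A over DMSO, 70.4% for BE-43547A1 over DMSO and 46.6% between the compounds.

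The share of SLC7A11 among the light chains was 52.8 to 54.2% after rakicidin A, 26.3 to 28.8% after BE-43547A1 and 10.6 to 11.6% in DMSO with each library left out, and 51.9% after rakicidin A with the longest transcript as length. Same-numbered libraries of different groups did not deviate together: their correlations ran from -0.0566 to 0.122, and 1 of 9 was over 0.1. With the replicate number as a block, 10, 10 and 8 transporters passed, as without it. Features tested without the filter numbered 69567, and the calls of the transporters did not change. SLC6A9, with 105 to 288 reads per library, has the widest intervals of the 10.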
